A study of Homo sapiens with 3 samples.

Results

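The ZNF genes examined here carry a symbol made of ZNF, a number and at most 1 further letter, the general name for numbered zinc finger genes. On the array 491 such genes had a named probe set, with 1180 probe sets in all. Each gene was read by its brightest probe set on average, and a gene was kept if on at least 1 array it reached 4.88 on the log2 scale, the median of the whole table. This left 246 genes, or 50.1% of the ZNF genes, against 63.9% of all 18239 genes. The 246 made up 2.11% of the 11653 genes kept. Levels chose the members, so their levels are given as a description and nothing rests on their being above the filter. Of the 246, 243 were protein-coding genes and 3 were transcribed pseudogenes (ZNF252P, ZNF271P and ZNF767P).

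Messenger RNA was measured in A498 cells, an epithelial line derived from a human kidney carcinoma, with 1 array for each of 3 cultures. All were confluent layers in serum-free medium with gentamicin, and RNA was taken after 4 h. The control culture received 0.08% DMSO, the second culture received E. coli 83972, a urinary tract isolate that colonizes without causing symptoms, and the third culture received 60 µM DRB. DRB, a nucleoside analogue, blocks the kinase CDK9 and with it the step in which paused RNA polymerase II is released into productive elongation. The labels give DMSO for the control alone and state 2 different bacterial concentrations, so no bacterial dose is given. There were no replicates, and every difference below is between single arrays of 1 cell line. No test between groups was possible and no p-value is given. Each treated array was set against that single control array, so an error in the control enters both comparisons.

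Most ZNF proteins bind DNA through a row of C2H2 zinc fingers, each a short loop in which paired cysteines and histidines hold a zinc ion. Many also carry a KRAB domain, which recruits the corepressor TRIM28 and, through it, the histone methyltransferase SETDB1 and HP1 proteins, and which silences retroelements in many cell types. The genes multiplied by tandem duplication and often lie side by side in clusters. Near relatives share much of their sequence, so some probe sets may read more than 1 of them.

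Precision is limited by there being 1 array a group. The medians of all 49386 probe sets were 4.87, 4.90 and 4.88 on the control, E. coli 83972 and DRB arrays. The 3′ probe set of ACTB exceeded its 5′ probe set by 1.98, 2.00 and 1.83 log2 units on the control, E. coli 83972 and DRB arrays, and that of GAPDH by 0.08, 0.16 and 0.09. Of 9 kidney epithelial and renal carcinoma markers with a probe set, 8 passed the filter on some array. KRT18, CDH2 and PAX8 read 11.63, 10.65 and 7.07 in the control, and EPCAM (3.43) did not pass. LHX1 (8.74, 7.33 and 7.09 in the order control, E. coli 83972 and DRB) and PAX8 (7.07, 7.23 and 6.10) were lower with DRB, and their part in the results was not tested. Markers of leukocytes, endothelium and fibroblasts passed for 1 of 5, 2 of 4 and 1 of 5 genes, the passing leukocyte gene being CD68 (9.08 in the control) and PTPRC reading 3.41, and in none of these 3 lists did a member differ from control by more than 0.32 in size on either treated array.

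In the control culture the kept ZNF genes read from 4.63 to 11.06 with a median of 6.12, and the median of all kept genes was 7.17. On the E. coli 83972 array they read from 4.16 to 11.23 (median 5.92; all kept genes 7.14), and on the DRB array from 3.42 to 10.81 (median 5.46; all kept genes 6.86). The control array held 231 of the 246 at or above the filter level, the E. coli 83972 array 222 and the DRB array 178. Passing on all 3 arrays was the case for 166 members. Another 47 passed on the control and E. coli 83972 arrays but not on DRB. Control and DRB alone passed 4, and E. coli 83972 and DRB alone 2. A further 14 passed through the control array alone, 7 through the E. coli 83972 array alone and 6 through the DRB array alone. Members that passed on some arrays only were bound to differ somewhat between arrays. Of the 14, 6 were at least 2-fold lower with DRB. In all, 68 members were under the filter level on the DRB array, and 38 of these were at least 2-fold lower with DRB, against 33 of the 178 at or above it. This split uses the DRB value itself, so a larger share among the 68 was built in and is not a result. The shares of all kept genes split in these ways are not given. The members just inside the filter were ZNF185 (highest value 4.90), ZNF2 (4.90) and ZNF142 (4.91), and the genes just outside were ZNF283 (4.88), ZNF433 (4.87) and ZNF826P (4.83).

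With DRB the question was which ZNF transcripts stood at other levels 4 h after elongation was blocked. Lower levels prevailed by far. Of the 246 genes, 71 (28.9%) were at least 2-fold lower, against 10.2% of all kept genes. None (0 of 246) was 2-fold higher in its brightest probe set, against 0.129% of all kept genes. With centring on poly-A spike-ins, 149 ZNF genes and 25.4% of all kept genes were 2-fold lower. Lower by 3-fold or more were 39 ZNF genes (15.9%; all kept genes 4.32%), while 0 were higher by as much (all kept genes 0.00858%). Lower by 1.5-fold or more were 107 (43.5%; all kept genes 18.1%). At least 4-fold lower were 16 ZNF genes (6.50%), against 2.32% of all kept genes. The median difference was −0.47 on the log2 scale, with quartiles of −1.19 and −0.05, and that of all kept genes was 0.05, with quartiles of −0.34 and 0.24. Below 0 lay 192 ZNF genes (78.0%) and 44.2% of all kept genes. The ZNF genes gave 5.99% of all genes that were at least 2-fold lower. In an RNA extract of a whole culture, fewer cells and less RNA per cell cannot be told apart, and RMA brings the arrays to nearly 1 distribution, so each difference is relative to the other transcripts.

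**Figure D1:**
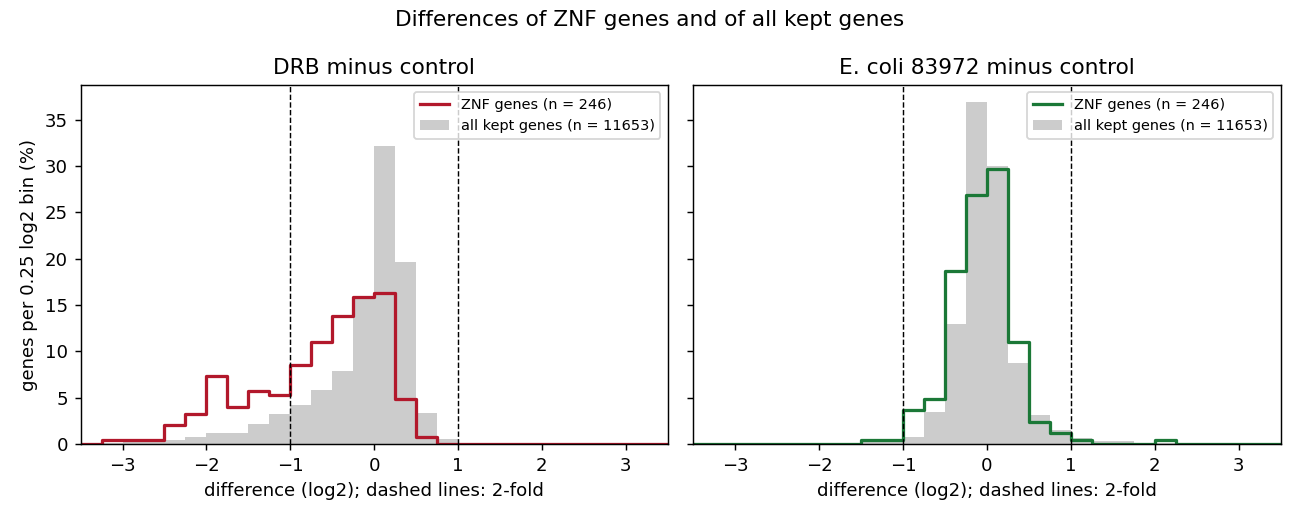
Share of genes (%) per 0.25 log2 bin of the difference from control, for DRB (left) and E. coli 83972 (right); the grey bars are all 11653 kept genes, the coloured outline is the 246 ZNF genes, and the dashed lines mark 2-fold. With DRB the ZNF outline extends to −3.07 on the lower side and ends at 0.53 on the upper side, and with E. coli 83972 both distributions centre close to 0.

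The members were split into 3 equal groups of 82 by their mean over the 3 arrays, a mean that includes the DRB value and that also chose the probe sets. In the range from 4.28 to 5.33, 26.8% of ZNF genes and 5.30% of all kept genes were at least 2-fold lower. In the range from 5.33 to 6.32 the shares were 26.8% and 11.3%, and above it 32.9% and 10.9%. The share was also given by type of probe set. Probe sets with the plain suffix _at gave 30.6% of 62 ZNF genes against 12.6% of all kept genes, and those marked _a_at, which match several transcripts of 1 gene, gave 24.3% of 115 against 8.14%. For _s_at sets, whose probes may match several genes, the shares were 47.4% of 38 against 15.0%, and for _x_at sets, which hold probes that may cross-hybridize, 19.4% of 31 against 6.13%.

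Single genes are described from the 20 lowest among those whose kept probe sets all read below control. ZNF181, a KRAB zinc finger gene, had the largest negative difference of the 246 brightest probe sets. It read 6.76 in the control, 6.24 with E. coli 83972 and 3.69 with DRB, a difference of −3.07 or 8.42-fold lower on the DRB array. That array stood alone, well under the filter level, while the other arrays were 0.52 apart. ZNF232, a member of the SCAN domain group, read 7.85, 7.66 and 5.06 in the same order (−2.78), and its 3 probe sets averaged −2.07 ± 0.78 (SD; errors given with a mean over probe sets below are the same). ZNF770 read 8.33, 8.39 and 5.89 (−2.44) in its single kept probe set. For both, the control and E. coli 83972 arrays lay close together and DRB was low.

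Several further genes were lower in each of their kept probe sets. ZNF189 read 7.83 in the control, 7.87 with E. coli 83972 and 5.54 with DRB, with a mean difference of −2.13 ± 0.13 over 3 probe sets. ZNF146, whose protein consists almost wholly of zinc fingers, read 8.57, 8.80 and 6.30, with a mean of −2.50 ± 0.23 over 3 probe sets. ZNF281, a factor studied in stem cells and in epithelial-mesenchymal transition, read 9.28, 8.94 and 7.24, with a mean of −2.21 ± 0.24 over 3 probe sets, so that it stayed well above the filter level with DRB. ZNF639 read 7.49, 8.27 and 5.54, with −2.13 ± 0.24 over 3 probe sets, and was the one among these whose E. coli 83972 value lay clearly above control. ZNF180 read 5.98, 5.75 and 4.09, with −1.79 ± 0.14 over 2 probe sets. The DRB value was the lowest of the 3 arrays for each of these 5 genes, and the spread over probe sets was small beside the difference.

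Others were lower by similar amounts with less to support the size. ZNF503, a corepressor of the NET family, read 8.01 in the control, 7.14 with E. coli 83972 and 5.75 with DRB (−2.26), but its mean over 2 probe sets was −1.43 ± 1.18. ZNF263, which has both a SCAN and a KRAB domain, read 7.02, 7.0 and 4.86 (−2.16; mean −1.49 ± 0.45 over 4 probe sets). ZNF644, a partner of the histone methyltransferases G9a and GLP, read 8.09, 8.18 and 6.14 (−1.94; mean −1.19 ± 0.51 over 6 probe sets). In all 3 the direction was shared by every kept probe set and the size was not.

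The remaining genes of these 20 had 1 kept probe set each. ZNF227, of the KRAB group, read 5.92 in the control, 5.80 with E. coli 83972 and 3.69 with DRB (−2.23). ZNF92, of the same group, read 7.76, 7.04 and 5.55 (−2.21), and ZNF449, of the SCAN group, read 5.80, 4.82 and 3.84 (−1.96). DRB was lowest in each, and for ZNF449 the E. coli 83972 array lay midway between the others. The KRAB genes ZNF45 and ZNF17 differed by −2.23 each, ZNF764 by −2.10, ZNF518A by −2.03, ZNF670 by −1.92 and ZNF529 by −1.89. Of the 20 genes, 11 were under the filter level on the DRB array, where RMA compresses differences, so their order is uncertain. Over the 20, control values ran from 5.75 to 9.28 and DRB values from 3.65 to 7.24.

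**Figure D2:**
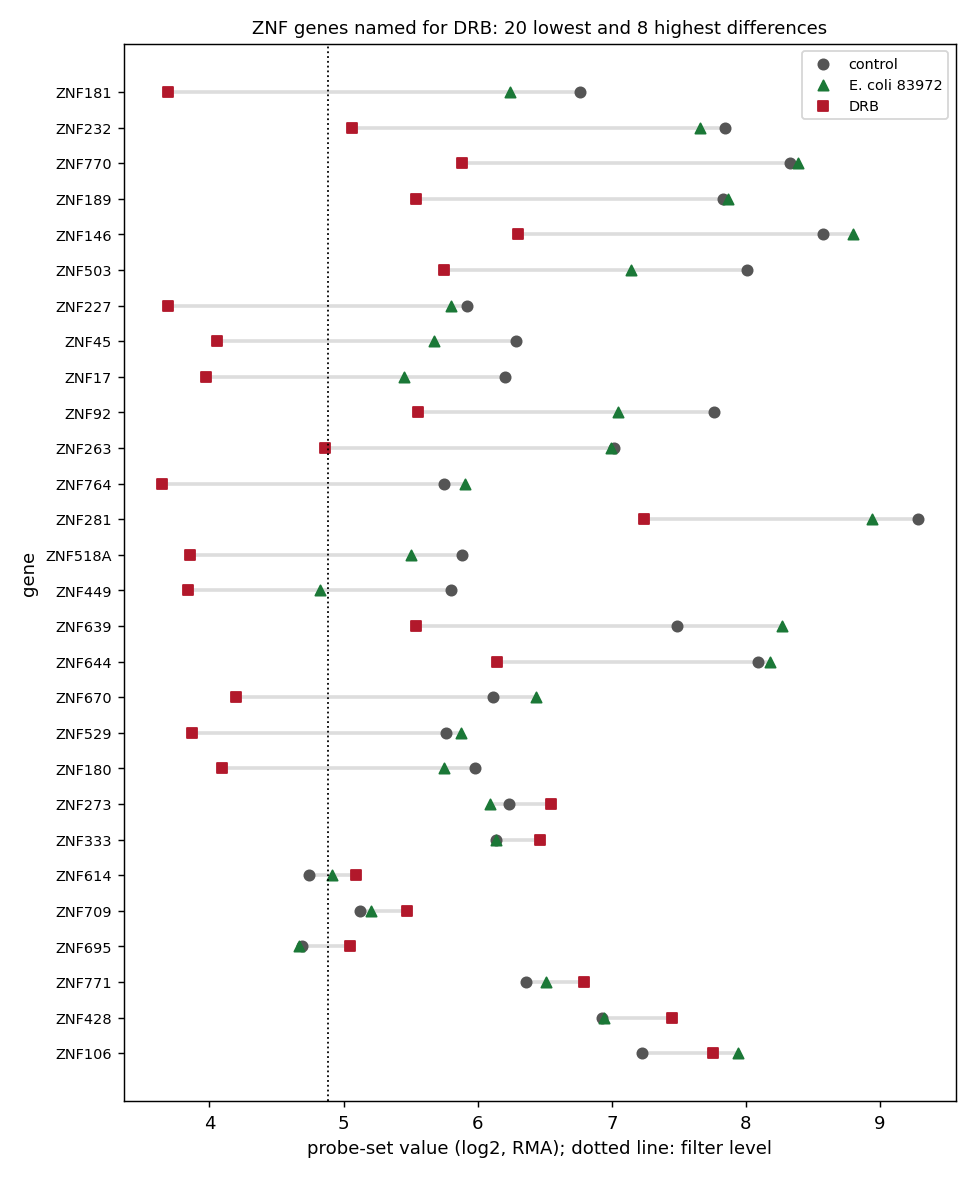
Probe-set values (log2, horizontal axis) on the control (circle), E. coli 83972 (triangle) and DRB (square) arrays, 1 array each, for the 20 ZNF genes with the lowest and the 8 with the highest differences on the DRB array among those whose kept probe sets all differed in that direction. For the 20 upper genes the DRB square lies at the left end of every row, between 3.65 and 7.24, and the dotted line is the filter level of 4.88; the 8 genes at the bottom differ by at most 0.53, and all 8 turn negative when centred on poly-A spike-ins.

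The 51 other genes that were at least 2-fold lower ranged from −2.62 to −1.0. Among them were ZNF24 of the SCAN group (8.20, 8.23 and 6.46 on the control, E. coli 83972 and DRB arrays; −1.74; mean −1.29 ± 0.64 over 5 probe sets), the nucleolar protein gene ZNF330 (mean −1.67 ± 0.08 over 4 probe sets) and ZNF274, which binds other ZNF genes and brings SETDB1 to them (−1.30, but 0.38 in its other probe set). They also included ZNF451, a SUMO ligase gene (−1.31, but 0.16 in its other probe set), and ZNF703, a relative of ZNF503 and a breast cancer oncogene (7.76, 6.95 and 6.51; −1.25). These 5 were picked for their known roles, after values were seen. Over all 71 genes the control values had a median of 6.45 (5.02 to 9.32), the E. coli 83972 values a median of 6.43 and the DRB values a median of 4.85 (3.42 to 7.24). On the DRB array 38 of the 71 were under the filter level.

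Probe sets of 1 gene gave a measure of how far a difference depends on the set read. Over the 93 members with several kept probe sets, the standard deviation of a DRB difference, from the disagreement of the 2 brightest sets, was 0.53 (robust estimate 0.33), against 0.32 (0.15) over all 6317 genes with several sets. For E. coli 83972 the values were 0.17 (0.11) and 0.18 (0.12). This spread holds technical error and any real difference between what the sets read, which cannot be told apart, and no variation between cultures. Of the 71 lower genes, 32 had 1 kept probe set. Of the other 39, 17 were at least 2-fold lower in every kept probe set, 14 were below 0 in every one, and 8 had a probe set above 0. Those 8 were ZNF217, ZNF84, ZNF302, ZNF480, ZNF367, ZNF451, ZNF274 and ZNF800.

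ZNF217, an oncogene amplified in breast cancers, shows how far this went. Its brightest probe set read 9.32 in the control, 9.75 with E. coli 83972 and 6.69 with DRB (−2.62), while another kept set read 4.93, 4.74 and 5.04 (0.11). ZNF84 had sets at −2.37 and 0.14. The reverse also occurred, and 6 genes not counted as lower had another kept probe set that was at least 2-fold lower. They were ZNF148, ZNF195, ZNF226, ZNF254, ZNF394 and ZNF652. In ZNF226 the brightest set differed by 0.09, while another read 6.43, 4.91 and 3.26 on the control, E. coli 83972 and DRB arrays (−3.18), the largest negative difference in any kept probe set of the 246 genes. In ZNF254 the sets differed by 0.49 and −2.33. These genes were picked for their disagreement after values were seen. Whether the sets read different transcripts, related genes or background was not tested.

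Of the 175 ZNF genes that were not 2-fold different with DRB, 36 were between 1.5-fold and 2-fold lower and 139 were within 1.5-fold of control. None was 1.5-fold higher in its brightest probe set, where 2.03% of all kept genes were. Another kept set was past 1.5-fold higher in ZNF106 (1.23) and ZNF789 (0.75). Among genes whose kept probe sets all read above control, the largest difference was that of ZNF106, an RNA-binding zinc finger gene, which read 7.23 in the control, 7.94 with E. coli 83972 and 7.75 with DRB (0.53; mean 0.68 ± 0.38 over 4 probe sets). Control was the lowest of its 3 arrays. ZNF428 read 6.93, 6.94 and 7.45 (0.52; mean 0.49 ± 0.04 over 2 probe sets), with DRB alone higher. ZNF771 followed at 0.44, in an _x_at set, and ZNF695, ZNF709, ZNF614, ZNF333 and ZNF273 at 0.36, 0.35, 0.35, 0.33 and 0.31. All 8 turned to values below 0 when arrays were centred on poly-A spike-in probe sets, which lowers every DRB difference by 0.67 and puts the median of all kept genes at −0.62.

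Further genes with known roles, in and outside DNA binding, differed with DRB by −0.92 to 0.28. They are those looked up by role that stayed under 2-fold, so their small differences follow from this sorting. Other genes looked up by role that were 2-fold lower are given above, except ZNF592 (−1.56). ZNF207, a spindle assembly factor, read 10.79 in the control, 10.77 with E. coli 83972 and 10.57 with DRB (−0.22). ZNF598, a ubiquitin ligase that marks collided ribosomes, differed by −0.48, ZNF593 by −0.14, and ZNF638, which silences unintegrated retroviral DNA, by −0.05. ZNF622, which acts in the maturation of the large ribosomal subunit, was lower than these relative to its control (8.59, 8.40 and 7.67; −0.92). Of KRAB genes known as tools or retroelement silencers, ZNF10, the source of the KRAB domain used in engineered repressors, read 4.74, 5.14 and 5.02 (0.28), and ZNF91, which silences SVA elements, read 7.34, 6.89 and 7.45 (0.11). ZNF143, an activator that binds many promoters, differed by −0.59, and ZNF410, an activator of CHD4, by −0.68. These 9 genes were picked by role and not by the naming rule.

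For E. coli 83972 the question was which ZNF transcripts stood at other levels 4 h after the bacterium was added. Of the 246 genes, 2 (0.813%) were higher by 2-fold or more, against 1.91% of all kept genes. Another 2 (0.813%) were lower by 2-fold or more, against 0.652%. With centring on hybridization spike-ins 13 were lower, against 2.12% of all kept genes, and 1 was higher. The median difference was −0.04 (quartiles −0.27 and 0.17), and that of all kept genes was −0.03 (quartiles −0.19 and 0.14). At the lower threshold of 1.5-fold, 19 ZNF genes (7.72%) were lower and 8 (3.25%) higher, while 3.06% of all kept genes were lower and 5.19% higher. These counts read the brightest probe set of each gene. In genes not counted as 2-fold different, another kept set was past 2-fold higher in ZNF106 (1.26) and ZNF609 (1.17). Another kept set was past 2-fold lower in ZNF226 (−1.52), ZNF652 (−1.25) and ZNF254 (−1.16).

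ZNF697 had the largest difference. It read 5.97 in the control, 8.13 with E. coli 83972 and 5.30 with DRB, and was 4.45-fold higher on the E. coli 83972 array (2.15). The E. coli 83972 value stood apart from both other arrays. Its other 2 probe sets did not pass the filter and differed by −0.05 and 0.04, so the difference rests on 1 probe set. ZNF267, a KRAB zinc finger gene, read 8.0, 9.01 and 6.81 (1.01; mean 0.99 ± 0.05 over 3 probe sets), so the 3 sets gave nearly 1 size, just at the 2-fold mark. The same gene was lower with DRB in all 3 sets (mean −1.39 ± 0.19).

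The genes next in size on the higher side were under 2-fold in their brightest probe sets. ZNF609, the host gene of a studied circular RNA, read 7.51 in the control, 8.31 with E. coli 83972 and 6.17 with DRB (0.80; mean 0.95 ± 0.20 over 3 probe sets). ZNF805 differed by 0.78 (mean 0.56 ± 0.31 over 2 probe sets), ZNF639 by 0.78 (0.76 ± 0.04 over 3) and ZNF106 by 0.71 (0.74 ± 0.41 over 4). ZNF280B, ZNF462, ZNF282, a repressor of a human retroviral promoter, and ZNF264 differed by 0.63, 0.59, 0.55 and 0.53. Of these 10 genes, ZNF462 and ZNF106 were above control on the DRB array as well, and the other 8 were below it.

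On the lower side, ZNF114 read 5.89 in the control, 4.54 with E. coli 83972 and 4.02 with DRB (−1.35 and −1.87), in a single _x_at set and with both treated arrays under the filter level. ZNF117, whose transcripts can begin in the neighbouring retroviral gene ERV3-1, read 6.14, 5.13 and 5.58 (−1.01 and −0.56). Its other probe sets did not pass the filter and differed by 0.23 and 0.03 with E. coli 83972 and by 0.47 and 0.13 with DRB. In the kept sets of ZNF114 and ZNF117 both treated arrays were below control. ZNF449 (−0.98), ZNF503 (−0.87), ZNF43 (−0.86), ZNF18 (−0.83), ZNF823 (−0.82) and ZNF703 (−0.81) followed. ZNF395, a hypoxia-responsive gene, read 9.84, 9.05 and 9.60 (−0.79; mean −0.66 ± 0.33 over 3 probe sets), and ZNF175 differed by −0.76. ZNF703 and ZNF503, the 2 NET family genes, were lower on both treated arrays, and the mean of ZNF503 over probe sets was −0.63 ± 0.34 with E. coli 83972.

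**Figure D3:**
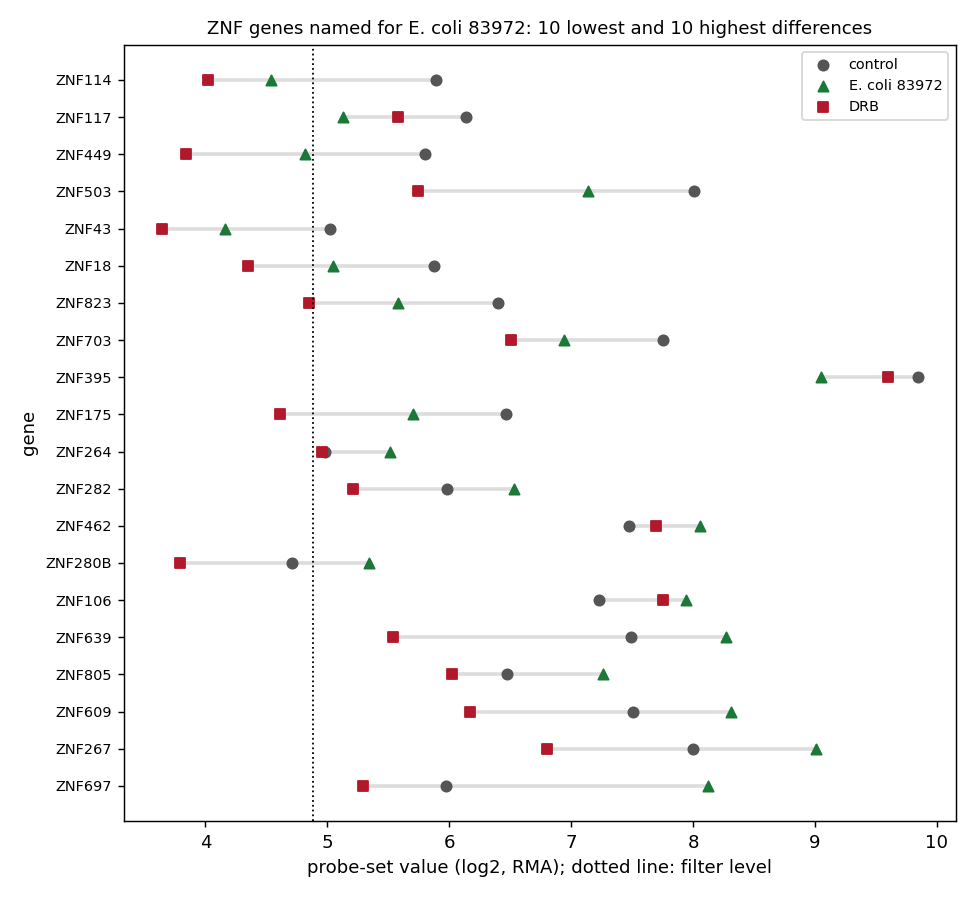
Probe-set values (log2, horizontal axis) on the control (circle), E. coli 83972 (triangle) and DRB (square) arrays, 1 array each, for the 10 ZNF genes with the lowest and the 10 with the highest differences on the E. coli 83972 array among those whose kept probe sets all differed in that direction; the dotted line is the filter level of 4.88. ZNF697 is the gene whose triangle lies farthest from its circle, at 8.13 against 5.97.

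The order of the 3 arrays was uneven. The DRB value was the lowest of the 3 for 177 of the 246 genes (72.0%), against 35.8% of all kept genes. The highest value was that of the control for 105 genes (42.7%; all kept genes 23.7%), that of E. coli 83972 for 98 (39.8%; 27.3%) and that of DRB for 43 (17.5%; 48.9%). Of the 71 genes that were at least 2-fold lower with DRB, 43 (60.6%) were below control on the E. coli 83972 array, where 54.9% of all 246 ZNF genes and 54.7% of all kept genes were, with differences from −1.35 to 1.01. Since the control array is shared, these orders are given as a description of 3 arrays.

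ZNF genes often lie beside each other, and the gene order of RefSeq (assembly GRCh38.p14) was used to group them. A run was defined as 3 or more ZNF genes with at most 2 other protein-coding genes between successive ones. There were 31 runs, of which 29 held a kept member, and 120 of the 246 genes lay in a run. Of those in runs, 38 (31.7%) were at least 2-fold lower with DRB, with a median of −0.56, and of the 126 outside, 33 (26.2%), with a median of −0.42. Without the filter the order turned, with medians of −0.12 in runs and −0.22 outside. In the comparison of E. coli 83972 with control, 78 of the 120 genes in runs were below 0 (median −0.12), against 57 of the 126 others (median 0.02). Genes in runs had lower signals (median mean level 5.55 against 6.15) and more _x_at probe sets (17.5% against 7.94%), and the part of these in the result was not tested.

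Runs differed from each other and within themselves. In the run from ZNF302 to ZNF792, the brightest probe sets of all 3 kept genes were lower with DRB, ZNF302 (−1.85), ZNF181 (−3.07) and ZNF30 (−1.46), and below control with E. coli 83972, between −0.58 and −0.52. Of the 4 kept probe sets of ZNF302, however, 2 were above 0 with DRB (mean −0.79 ± 1.09). In the run from ZNF283 to ZNF180, 4 of 5 kept genes were lower, ZNF45 (−2.23), ZNF234 (−1.45), ZNF227 (−2.23) and ZNF180 (−1.89), and the fifth was ZNF226, whose probe sets disagreed. The large run from ZNF577 to ZNF331 held 9 kept genes of 38, and its brightest probe sets were at least 2-fold lower for ZNF765 (−1.79), ZNF766 (−1.75) and ZNF480 (−1.67) and between −0.19 and 0.35 for the other 6. For ZNF480 the other 2 kept probe sets were above 0 (mean −0.51 ± 1.0 over 3). The run from ZNF101 to ZNF254 held 5 kept genes of 37 and had a median above 0 (0.11), with ZNF43 (−1.38) as the lone lower gene. Of the 19 runs with at least 3 kept genes, 18 had a median below 0, 3 had one at or below −1, and 3 held no gene that was 2-fold lower. With centring on poly-A spike-ins every run median was lower by 0.67, which puts that of the run from ZNF101 to ZNF254 below 0 too.

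**Figure D4:**
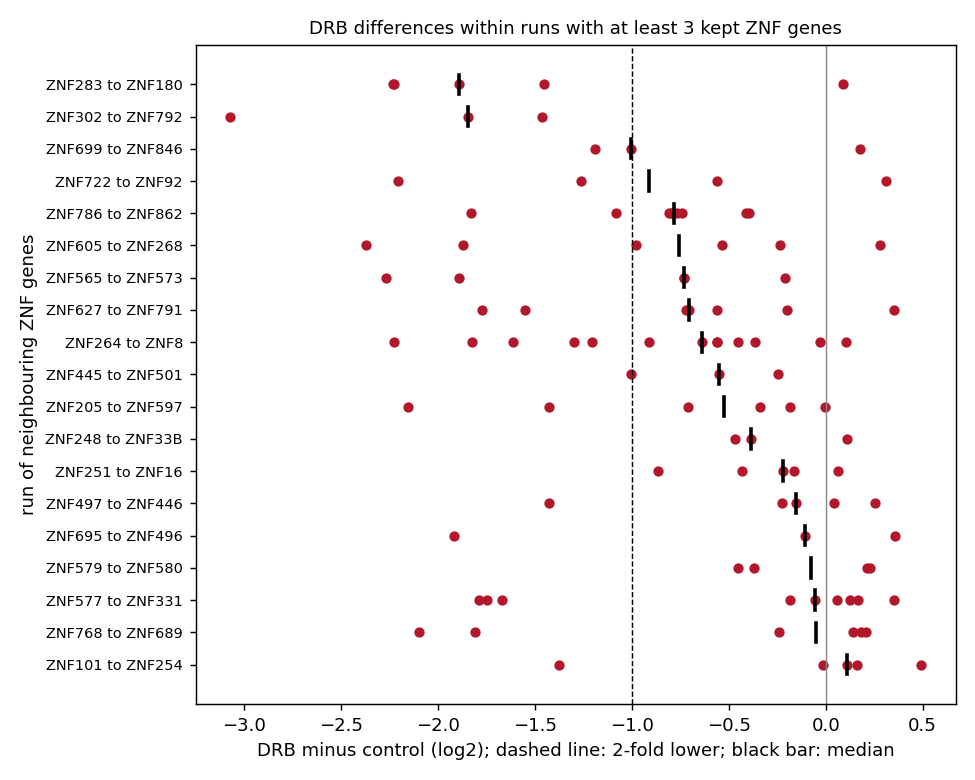
DRB minus control (log2, horizontal axis) for each kept ZNF gene (point) in the 19 runs of neighbouring ZNF genes with at least 3 kept members, named by their first and last ZNF gene and ordered by median (black bar); the dashed line marks 2-fold lower. Medians run from −1.89 in the run from ZNF283 to ZNF180 to 0.11 in the run from ZNF101 to ZNF254.

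Promoter sequences were compared because many members were lower together. The windows hold 250 bases before and 50 after a gene's start, from RefSeq (GRCh38.p14), and 207 of the 246 genes had one; where several starts are listed, the first was used. The windows of 4 genes are shown, those of ZNF181 (chr19:34733993-34734292, + strand), the lowest with DRB, and ZNF227 (chr19:44212282-44212581, + strand), taken from the 20 lower genes after the windows were read because it holds TTCTGGGA, and those of ZNF697 (chr1:119648217-119648516, − strand) and ZNF267 (chr16:31873557-31873856, + strand) as the genes at least 2-fold higher with E. coli 83972. Each is written 5′ to 3′ on the gene's strand, with matches to CCGGAAG or TTCTGGGA, on either strand, in capitals.
ZNF181: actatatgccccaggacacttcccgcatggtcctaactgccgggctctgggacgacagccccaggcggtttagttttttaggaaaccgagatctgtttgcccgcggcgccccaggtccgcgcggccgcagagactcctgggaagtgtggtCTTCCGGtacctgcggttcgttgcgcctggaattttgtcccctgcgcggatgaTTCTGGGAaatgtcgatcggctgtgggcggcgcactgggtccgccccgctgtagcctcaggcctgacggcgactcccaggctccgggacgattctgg
ZNF227: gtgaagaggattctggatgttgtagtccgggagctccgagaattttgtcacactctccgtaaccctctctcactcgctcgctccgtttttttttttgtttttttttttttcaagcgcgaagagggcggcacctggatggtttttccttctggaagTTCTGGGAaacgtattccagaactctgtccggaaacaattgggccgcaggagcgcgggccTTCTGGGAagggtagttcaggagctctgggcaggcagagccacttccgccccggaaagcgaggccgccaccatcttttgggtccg
ZNF697: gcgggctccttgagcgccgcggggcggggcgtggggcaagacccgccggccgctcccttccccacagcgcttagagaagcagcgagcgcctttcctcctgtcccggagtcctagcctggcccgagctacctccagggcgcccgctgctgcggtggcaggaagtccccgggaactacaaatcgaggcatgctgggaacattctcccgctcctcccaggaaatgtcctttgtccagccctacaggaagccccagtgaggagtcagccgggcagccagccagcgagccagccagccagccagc
ZNF267: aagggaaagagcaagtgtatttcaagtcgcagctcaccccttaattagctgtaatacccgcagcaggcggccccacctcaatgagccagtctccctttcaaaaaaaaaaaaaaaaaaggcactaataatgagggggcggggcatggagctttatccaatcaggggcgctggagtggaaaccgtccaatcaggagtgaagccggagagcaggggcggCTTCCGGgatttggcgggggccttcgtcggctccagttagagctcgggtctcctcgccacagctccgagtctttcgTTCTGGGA

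The core CCGGAAG, bound by ETS factors, stood in 38.6% of the 207 ZNF windows, against 18.5% of the windows of all kept genes and 10.7% of all 27305 windows. It stood in 24 of the 64 windows of ZNF genes that were 2-fold lower with DRB (37.5%) and in 56 of the 143 others (39.2%). The ZNF143 and THAP11 motif stood in 10.6% of ZNF windows, 2.91% of those of all kept genes and 1.49% of all windows, with 7 of 64 among the lower and 15 of 143 among the other members. TATAAA, the TATA box, stood in 1.93% of ZNF windows (6.10% of kept genes, 12% of all), and CCAAT in 45.4% (36.4% and 35.7%). The GC box GGGCGG stood in 67.6% (69.1% and 44.6%), the NRF1 motif in 12.1% (11.7% and 6.28%), the CRE TGACGTCA in 5.31% (3.14% and 1.98%) and the NF-κB motif in 0.483% (0.596% and 0.579%). The NF-κB motif was searched in a narrow form only. That form was in neither window of the genes that were higher with E. coli 83972. Looser forms of the motif were not searched, so these windows cannot be said to lack NF-κB-type letters. Both strands were searched, and a match describes letters and not a bound site.

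The letters TTCTGGGA were added after the windows of members had been read, so their share is a description of windows partly chosen for them. They stood in 13 of the 64 windows (20.3%) of ZNF genes that were 2-fold lower with DRB and in 9 of 143 (6.29%) of the others, against 2.61% of all kept genes and 2.78% of all windows. They are not part of CCGGAAG, and may overlap the end of the ZNF143 motif read on the other strand. The 13 genes included ZNF181, ZNF146, ZNF227, ZNF263 and ZNF180. The median difference with DRB was −1.14 for the 22 members with the letters and −0.47 for the 185 without. Outside the ZNF genes the letters went with no such share: 24 of 228 kept genes with them (10.5%) were 2-fold lower, and 904 of 9128 without them (9.90%).

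Corepressors of KRAB domains and other chromatin and silencing genes were compared by a list of 37 genes, all of which passed the filter. Of these, 4 (10.8%) were 2-fold lower with DRB, close to the 10.2% of all kept genes, and 0 were higher, with a median of −0.03. With E. coli 83972, 1 (2.70%, against 1.91% of all kept genes) was 2-fold higher and 0 were lower, with a median of −0.01. TRIM28, the scaffold of the complex, read 7.97 in the control, 7.80 with E. coli 83972 and 8.01 with DRB, so that the 3 arrays lay close together. SETDB1 read 6.12, 6.20 and 5.47 (−0.64 with DRB). Its partner gene ATF7IP read 6.39, 5.61 and 5.16, and so was lower on both treated arrays (−0.78 and −1.23). The other genes that were 2-fold lower with DRB were MORC3 (−2.06), the remodeller gene SMARCAD1 (−1.62) and TRIM24 (−1.23), while ATRX differed by 0.94. With E. coli 83972 the largest differences were those of the NuRD remodeller gene CHD4 (7.62, 8.96 and 8.38; 1.34), MORC3 (0.83) and ATF7IP.

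Other zinc finger families were set beside the ZNF genes by name. The prefix ZBTB also took in an antisense and an opposite-strand gene (28 symbols), and without these 26 ZBTB genes remained, a choice made after seeing the data. With DRB, 9 of the 26 were 2-fold lower (34.6%, against 10.2% of all kept genes; median −0.53) and 1 higher, ZBTB20 (1.20). Of 11 ZFP genes 8 were lower (72.7%; median −1.43), led by ZFP1 (−2.14), ZFP36, which is a CCCH protein that promotes mRNA decay (−2.09), and ZFP42 (−2.06). The ZFP median was −0.64 without the filter (19 genes). Of 18 KLF and SP genes 5 were lower (27.8%; median −0.32), led by KLF2 (−1.76), SP3 (−1.65) and KLF9 (−1.36). Of 12 ZSCAN and ZKSCAN genes 2 were lower (16.7%; median 0.02), ZKSCAN5 (−1.46) and ZSCAN29 (−1.15), and of 15 PHF genes, which have PHD fingers, 1 was (6.67%; median −0.06), PHF3 (−2.22). With E. coli 83972, 4 of 18 KLF and SP genes were 2-fold higher (22.2%, against 1.91% of all kept genes), among them KLF6 (2.33), KLF9 (1.45) and KLF7 (1.14), and so were 2 of 11 ZFP genes (18.2%), ZFP42 (1.06) and ZFP36 (1.02). ZBTB18 differed by −1.56 and ZBTB21 by 1.16, which makes 1 of 26 in each direction (3.85%, against 0.652% lower and 1.91% higher of all kept genes), and no ZSCAN, ZKSCAN or PHF gene was 2-fold different. Differences between these families were not tested. Centring on hybridization spike-ins lowers every E. coli 83972 difference by 0.34 and turns the KLF and SP median from 0.28 to −0.05, and centring on poly-A spike-ins turns the ZSCAN and ZKSCAN median with DRB to −0.65.

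**Figure D5:**
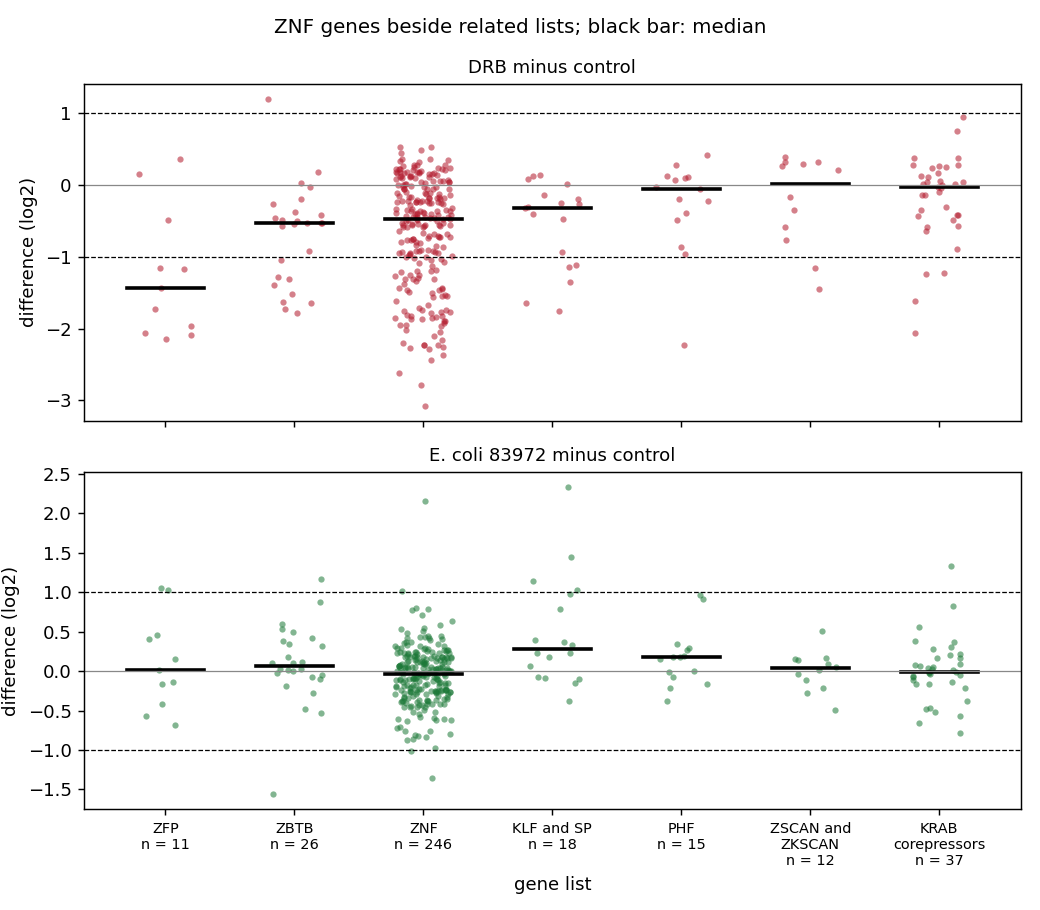
Difference from control (log2, vertical axis) of each kept gene (point) with DRB (upper panel) and E. coli 83972 (lower panel) for ZFP, ZBTB, ZNF, KLF and SP, PHF, ZSCAN and ZKSCAN genes and KRAB corepressor genes; black bars are medians and dashed lines 2-fold. With DRB the medians run from −1.43 for ZFP genes to 0.02 for ZSCAN and ZKSCAN genes, with ZNF genes at −0.47, and with E. coli 83972 the largest ZNF value is that of ZNF697, 2.15.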

How the data were processed

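The values are log2 probe-set values deposited by the authors for 3 Affymetrix 3′ expression arrays. Per the submitters' processing notes, RMA and Partek were used. How the background was handled, and with how many arrays, is not given in the sources used here, nor are versions. RMA corrects background, equalizes distributions and summarises probes, so a shift shared by most transcripts is removed and dim differences are compressed. Symbols came from the platform annotation, in which 45259 of 49386 probe sets had 1 symbol, 1327 several and 2800 were not listed. Through Entrez identifiers 45178 matched RefSeq (GRCh38.p14), with 0 changed symbols.

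A difference is a treated minus the control value, and 2-fold is 1 log2 unit. The calculation was tested on simulated data. The genes named are the 20 lowest and 8 highest (DRB) and 10 lowest and 10 highest (E. coli 83972) whose kept probe sets all differed in that direction, genes at the filter's edge, and up to 6 corepressor and 3 family genes; others are said to be chosen otherwise. Members and lists were chosen with earlier results of these data known. A planned split by KRAB domain was not run, since protein sequences were not used here. Python 3.11.15, pandas 2.3.3 and statsmodels 0.14.6 (loess span 0.3) were used.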

Additional observations from a re-analysis of the deposited data

How the results depend on the processing

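With single arrays no limit from replicates can be given, and dim values limit the sizes: 38 of the 71 lower ZNF genes were under the filter level with DRB. The number of ZNF genes at least 2-fold lower with DRB was 75 (of 491) with no filter. It was 57 to 91 with both other filters, the mean over probe sets, centring on all probe sets or on hybridization spike-ins, and loess. It was 24 (of 76) with plain-suffix probe sets and 149 with centring on poly-A spike-ins (25.4% of all kept genes). At 1.5-fold it was 107 (43.5%, against 18.1% of all kept genes) and at 3-fold 39 (15.9%, against 4.32% of all kept genes). Filters and probe-set choices also change how many genes are counted, so like counts do not mean like shares. The share of all genes is not given for those settings. The count of higher genes was 0 throughout. All 71 were among the 91 and the 149, and 57 among the 58 by the mean over probe sets. The DRB median was −0.14 without the filter (491 genes), −0.75 with the stricter filter, −1.15 centred on poly-A spike-ins and −0.71 on hybridization spike-ins, where the medians of all kept genes were 0.09, 0.01, −0.62 and −0.18. In the same 4 settings it was −0.12, −0.91, −1.23 and −0.79 for genes in runs, and for genes outside runs −0.22 without the filter, −1.09 on poly-A and −0.65 on hybridization spike-ins, and −0.58 with plain-suffix sets.

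With E. coli 83972 the lower genes numbered 1 with the filter on the mean or plain-suffix sets, 13 with hybridization spike-ins (2.12% of all kept genes), 19 at 1.5-fold and 0 at 3-fold. The higher genes numbered 1 with the mean over probe sets, plain-suffix sets, any of the 3 centrings or the 3-fold threshold, and 8 at 1.5-fold; the gene lost with the mean and the centrings was ZNF267. The median was −0.37 with hybridization spike-ins, as it was −0.36 for all kept genes. Beside these shifts, which the centrings make by construction, the cause was not tested. Symbols as the platform annotation gives them changed nothing. No paired analysis was possible because each group has 1 array.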

Other observations

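Of the 245 ZNF genes that did not pass the filter, 4 differed by at least 2-fold with DRB and 0 with E. coli 83972, and the largest differences in size were 1.3 and 0.87. The share among all genes that failed the filter is not given, so these counts have no background beside them. The medians of the 245 ZNF genes were −0.01 with DRB and 0.02 with E. coli 83972. ZNFX1, an interferon-inducible helicase gene whose name falls outside the rule, read 6.89 in the control, 7.65 with E. coli 83972 and 6.56 with DRB, differences of 0.76 and −0.32. ZNF436-AS1, an antisense RNA gene, read 5.80, 5.54 and 6.15. The arrays hold no replicate of any of these values.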
